A study of Mus musculus with 4 samples.

Results

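The response of Wbp7-/- macrophages to lipopolysaccharide (LPS, from the outer membrane of Gram-negative bacteria) was read from 2 lists of H3K4me3 peaks, 1 from untreated and 1 from LPS-treated cells. The untreated list held 14599 peaks and the LPS list 15086, together 29685 of the 64314 peaks in the 4 lists of the series. An LPS peak was called new when no untreated peak overlapped it by at least 1 bp, an untreated peak was called missing in the reverse case, and merging the overlapping peaks of both lists left 15516 regions. All cells were primary macrophages grown from bone marrow, at the 7th day of differentiation, and the mice were C57BL/6 (94%) mixed with 129/Ola (6%). The treated Wbp7-/- cells had received 10 ug/ml LPS for 4 h, and both groups lacked Wbp7. The Wbp7+/- cells, with 1 functional allele, were sampled in the same 2 states and serve below as a separate pair of libraries. The first line of the LPS-treated Wbp7+/- file names 24 h where its label gives 4 h, so the time behind that library is uncertain wherever it is used. Each group was 1 library, so no difference has a replicate check, no test between groups was run, and the number of mice behind a library is not stated in the labels.

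H3K4me3, trimethylation of lysine 4 of histone H3, marks the promoters of active and poised genes, and its width along a promoter region varies from gene to gene. Wbp7, also called Kmt2b or MLL2, is one of several methyltransferases that place methyl groups on this lysine. LPS is sensed through Toll-like receptor 4, which activates NF-kB and interferon regulatory factors and turns on cytokine, chemokine and antiviral genes in macrophages. Positions below are in mm9 and counted from 1. A gene annotation of mm9 was not used here, so no gene is named for a region, the label of the cells was not checked against marker genes, and exon, intron or promoter position is not given.

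Each peak carries the score of the peak caller, which grows with read depth and enrichment. The score was taken to follow the convention of MACS, which the sources used here do not state. By that convention a score of 50 corresponds to a p-value of 1e-05. The depth behind a peak or its absence is unknown, since no read numbers were at hand. The scores pile up at 3100, and peaks at or above this value form 1 class, called the ceiling. In the untreated list there were 1492 peaks below 100, 2187 between 100 and 500, 1873 between 500 and the ceiling, and 9047 at it. After LPS the same classes held 1676, 2442, 2018 and 8950 peaks. The LPS list thus had more peaks in each class below the ceiling and fewer at it. Peaks covered 33.47 Mb untreated and 33.90 Mb after LPS, with median widths of 2106 and 2026 bp.

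Strong peaks were found after LPS at places that had none before, and almost no strong peak was missing. In all, 1297 of 15086 LPS peaks (8.60%, 95% Wilson interval 8.16 to 9.06) were new and 946 of 14599 untreated peaks (6.48%, 6.09 to 6.89) were missing. The intervals here and below cover counting error over peaks only. The LPS list is the longer one, and with both lists trimmed to 14599 peaks the order turned, with 1033 new and 1125 missing. The 2 directions were close among the weakest peaks, where 46.0% of LPS peaks scoring under 100 were new and 46.6% of untreated peaks scoring under 100 were missing. They separated with score. Between 100 and 500 the shares were 16.9% new (15.5 to 18.5) against 11.4% missing (10.1 to 12.8). Between 500 and the ceiling, 93 of 2018 LPS peaks were new (4.61%, 3.78 to 5.61) and 1 of 1873 untreated peaks was missing (0.0534%, 0.0094 to 0.302). At the ceiling 20 LPS peaks were new (0.223%, 0.145 to 0.345), and 0 of 9047 untreated peaks were missing, which allows a share of up to 0.0332% by the limit of 3 counts, or 0.0424% by the Wilson interval.

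**Figure D1:**
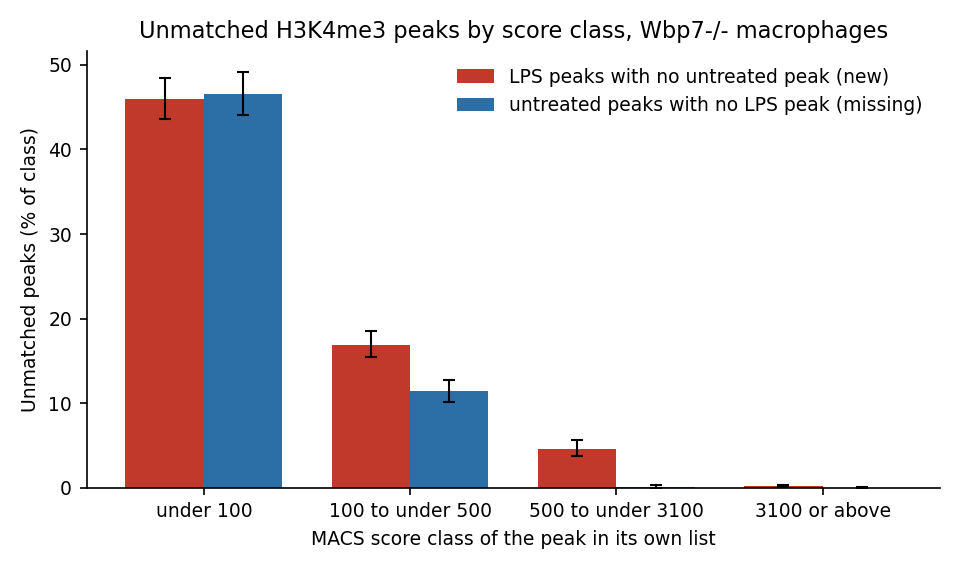
Share of peaks without an overlapping peak in the other Wbp7-/- list (y axis, percent of the class) by score class of the peak (x axis). Red bars are LPS peaks with no untreated peak and blue bars untreated peaks with no LPS peak, with 95% Wilson intervals over peaks. The bars are alike under a score of 100 (46.0 and 46.6%) and part above 500, where new peaks make up 4.61% and missing peaks 0.0534%.

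Most new peaks were weak and narrow, and a small set was strong and broad. The 1297 comprised 771 below 100, 413 between 100 and 500, and 113 of 500 or above. The median width of new peaks was 676 bp under a score of 100, 983 bp from 100 to under 500, 1644 bp from 500 to under the ceiling and 2970 bp at the ceiling. Peaks with an untreated counterpart had median widths of 730, 1032, 1537 and 2644 bp in the same classes. New peaks were therefore narrower than matched peaks of their class below 500 and wider above it. The widths overlapped, since the middle 50% of new ceiling peaks ran from 2547 to 4401 bp and that of matched ceiling peaks from 2076 to 3465 bp.

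The 20 new ceiling peaks lay on 11 of the 20 chromosomes in the lists, with 5 on chromosome 11 and 3 each on chromosomes 2 and 5. Chromosomes 11, 2 and 5 held 1276, 1196 and 985 of all 15086 LPS peaks. All 20 also had a ceiling peak in LPS-treated Wbp7+/- cells. Nearly all matched ceiling LPS peaks, 8929 of 8930, likewise overlapped a Wbp7+/- LPS peak of any score. The 20 fall into a group of 9 with no peak in untreated Wbp7+/- cells either, and a group of 11 at which untreated Wbp7+/- cells already had a peak. The group of 9 was the broader one, with a median width of 4445 bp against 2847 bp.

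Of the 9 places without a peak in either untreated list, the broadest was chr11:117835772-117842148. Its LPS peak was 6377 bp wide in Wbp7-/- cells, next to 6871 bp with the Wbp7+/- genotype. Next came chr11:78733216-78739455, with 6240 and 6564 bp. Both were wider than 5 kb, the limit used here for a broad peak, which 4.36% of all LPS peaks reached. The third, chr2:129131795-129136648, was 4854 bp wide, next to 6560 bp in the Wbp7+/- list. At chr17:34994911-34999735 the widths were 4825 and 5394 bp, and at chr11:83340165-83344609 they were 4445 and 4515 bp. Each of these 5 was the wider one in Wbp7+/- cells. The peak at chr2:30756190-30759353 measured 3164 bp and its Wbp7+/- counterpart 3699 bp. The remaining 3 were about as wide as a typical matched ceiling peak. They were chr5:30339556-30342479 with 2924 and 2827 bp, chr5:92789099-92791707 with 2609 and 2663 bp, and chr8:59984703-59987257 with 2555 and 3509 bp. The first of these was the only one of the 9 that was wider in Wbp7-/- cells.

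At the other 11 places the untreated Wbp7+/- list held a peak below the ceiling, with scores from 56.3 to 1152.61, where the untreated Wbp7-/- list held none. The broadest was chr14:103445788-103450173, where the peak covered 4386 bp in LPS-treated Wbp7-/- cells. In Wbp7+/- cells it covered 2309 bp untreated, at a score of 170.98, and 4085 bp after LPS. At chr4:131475878-131479519 the Wbp7-/- LPS peak measured 3642 bp, and the Wbp7+/- peak 669 bp untreated and 4568 bp after LPS. Here the untreated peak covered only a small part of what was covered after LPS. A larger part was already covered at chr11:82929865-82933371, with 3507 bp in LPS-treated Wbp7-/- cells. The Wbp7+/- peak there measured 3065 bp untreated, at the highest untreated score of the group (1152.61), and 4694 bp after LPS.

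The next of the 11 were chr10:74779209-74782224 (3016 bp), chr17:57364877-57367774 (2898 bp) and chr1:175959312-175962158 (2847 bp), with untreated Wbp7+/- scores of 689.92, 335.02 and 327.91. Peaks of 2524 bp at chr7:109164217-109166740 and of 2000 bp at chr11:20610603-20612602 had untreated Wbp7+/- scores of 669.9 and 935.8. At chr2:122463417-122465342 the Wbp7-/- LPS peak of 1926 bp faced a Wbp7+/- LPS peak of 4585 bp, the largest difference between the genotypes among the 20. The last were chr5:105721240-105723160 with 1921 bp and chr19:11123852-11125246 with 1395 bp. Over all 20 the LPS peak was wider in Wbp7+/- cells at 17 and wider in Wbp7-/- cells at 3. Widths also depend on the unknown depth of each library, so this is no measure of a difference between genotypes.

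**Figure D2:**
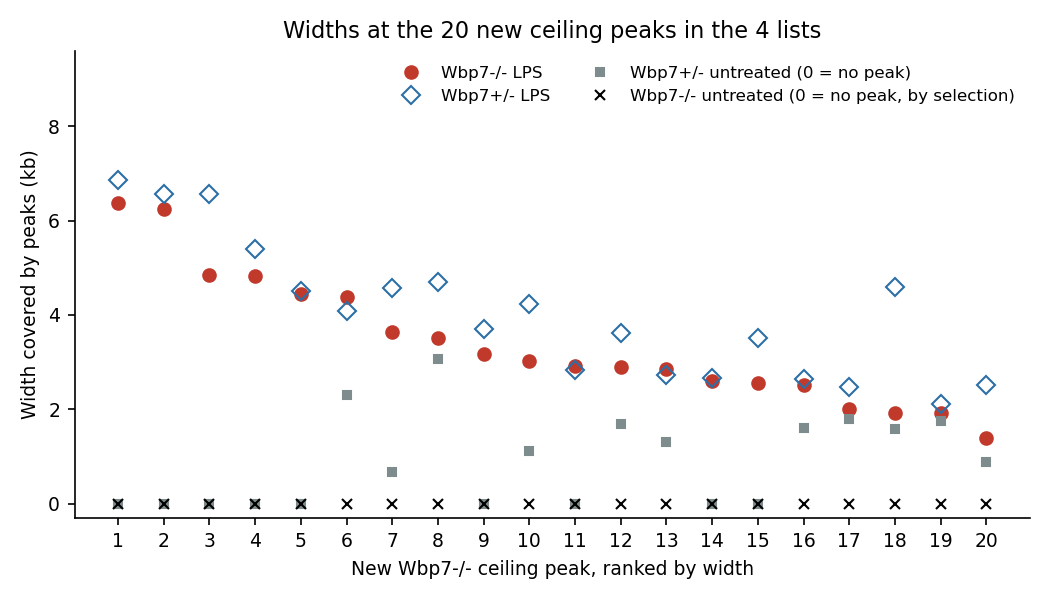
Width covered by peaks (y axis, kb) at each of the 20 new Wbp7-/- ceiling peaks, ranked by width (x axis), in the 4 lists. Red circles are LPS-treated Wbp7-/- cells, open diamonds LPS-treated Wbp7+/- cells, grey squares untreated Wbp7+/- cells and crosses untreated Wbp7-/- cells, which are at 0 by selection. The first 5 have no peak in either untreated list and reach 4445 to 6377 bp in Wbp7-/- cells.

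The 10 new peaks next in score, from 2225.79 to 3029, were likewise shared with LPS-treated Wbp7+/- cells. The highest was chr17:32945731-32947891, 2161 bp wide, with a Wbp7+/- LPS peak of 2076 bp that scored only 788.46. The broadest was chr18:75117848-75122297, with 4450 bp against 5297 bp in the Wbp7+/- list. Each of the 10 overlapped a Wbp7+/- LPS peak, 7 of them at the ceiling, and 5 overlapped an untreated Wbp7+/- peak. Further members were chr18:60372035-60374244, chr5:143721893-143725392, chr16:93139754-93142523, chr2:122266709-122268160, chr3:94799104-94801127, chr7:53968475-53971270, chr3:78975568-78977477 and chr6:57533042-57534475. The widths of these 8 ran from 1434 bp at the last to 3500 bp on chromosome 5.

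Strong new peaks were almost always shared with the LPS-treated Wbp7+/- cells, and about as often as not were present in the untreated Wbp7+/- cells. Of the 113 new peaks scoring 500 or above, 112 overlapped a Wbp7+/- LPS peak (99.1%, 95.2 to 99.8) and 58 a Wbp7+/- untreated peak (51.3%, 42.2 to 60.3). Among the 10855 matched LPS peaks of the same score, 99.4% overlapped a Wbp7+/- LPS peak and 99.7% a Wbp7+/- untreated peak. The single strong new peak without any Wbp7+/- peak was chr2:77892147-77893466, with 1320 bp and a score of 564.02. It was picked out after its values were seen. Weak new peaks differed, since 476 of 771 scoring under 100 (61.7%, 58.3 to 65.1) had a Wbp7+/- LPS peak and 248 had no Wbp7+/- peak at all. For matched LPS peaks under 100, 546 of 905 (60.3%, 57.1 to 63.5) had a Wbp7+/- LPS peak, an interval that overlaps that of the new ones.

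New ceiling peaks lay about as far from other peaks as matched ceiling peaks did. The median distance from a new ceiling peak to the nearest matched LPS peak was 25.16 kb, against 22.34 kb between neighbouring matched peaks for those at the ceiling. For scores under 100 these medians were 10.78 and 8.34 kb. None of the 20 ceiling peaks lay within 1 kb of a matched peak, and 7 (35.0%) lay within 10 kb, against 8.91 and 31.0% of matched ceiling peaks. The closest, chr8:59984703-59987257, was 1.79 kb away. Under a score of 100, 20.9% of new and 29.0% of matched peaks lay within 1 kb of a matched peak, and from 100 to 500 the shares were 22.3 and 24.7%. From 500 to under the ceiling they were 21.5% of 93 new and 18.1% of 1925 matched peaks, the only class with the higher share among new peaks.

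The share of new peaks varied between chromosomes from 5.73% on chromosome 15 to 11.4% on chromosome 16. In the full lists, whose order turned at equal length, new peaks outnumbered missing ones on 17 of the 20 chromosomes. The exceptions were chromosomes 7, 13 and 15, with 61 against 78, 38 against 45 and 35 against 49. Chromosomes 1 and 17, with 859 and 780 LPS peaks, each held 13 of the 113 new peaks scoring 500 or above, and chromosome 13 held none. That chromosome carried 640 LPS peaks in all, 38 of them new.

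Missing peaks were weak. Of the 946, 696 scored under 100 and 249 from 100 to under 500, and the median width was 775 bp. The only one above 500 was chr8:128253614-128255539, 1926 bp wide with a score of 585.87. It lay 1.30 kb from a matched peak, and untreated Wbp7+/- cells had a peak of 1499 bp there that was also absent after LPS. The next were chr9:64295486-64296334 with a score of 451.92 and chr4:47332334-47333849 with 445.22. Both also had an untreated Wbp7+/- peak and no LPS peak in that genotype.

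The other 12 of the 15 highest-scoring missing peaks scored 275.47 to 354.95. Those at chr7:109574809-109576057, chr18:63367728-63369228, chr7:105267260-105268182, chr14:26121041-26121905, chr4:154945308-154946705 and chr6:43332817-43333352 had no peak in either Wbp7+/- list. Those at chr4:86322011-86322683, chr1:138581953-138582747, chr7:74512452-74514100 and chr4:114720386-114721324 had an untreated Wbp7+/- peak that was likewise gone after LPS. The remaining 2, chr8:73380360-73380970 and chr1:36518753-36519440, kept a Wbp7+/- peak with and without LPS. In all, 7 of the 15 were missing after LPS in both genotypes, 6 were seen in Wbp7-/- cells alone and 2 in both Wbp7+/- lists.

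Over all missing peaks 169 of 946 were in the untreated Wbp7+/- list only and 282 in both Wbp7+/- lists. A Wbp7+/- untreated peak was present at 451 of 946 (47.7%, 44.5 to 50.9) and a Wbp7+/- LPS peak at 307 (32.5%, 29.5 to 35.5), and 470 (49.7%) had no Wbp7+/- peak. Matched untreated peaks overlapped a Wbp7+/- untreated peak in 96.2% and a Wbp7+/- LPS peak in 94.2%. Within the class from 100 to under 500, 127 of 249 missing peaks had a Wbp7+/- untreated peak and 69 a Wbp7+/- LPS peak. For the 1938 matched peaks of that class the shares were 86.1 and 78.0%.

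Most H3K4me3 regions kept a single peak of nearly the same width. Of the 15516 regions, 12471 (80.4%) held exactly 1 peak of each list, called a one-to-one pair. Their median widths were 2199 and 2162 bp without and with LPS, and the median ratio of LPS to untreated width was 0.976, with the middle 50% between 0.909 and 1.05. The LPS peak was the wider one in 4991 pairs (40.0%). Pairs were called widened when the LPS peak was at least 1.5 times as wide as the untreated one, and narrowed in the reverse case. By this limit 429 pairs widened (3.44%, 3.13 to 3.77) and 290 narrowed (2.33%, 2.08 to 2.60). The typical peak thus measured slightly less after LPS, while more pairs passed 1.5-fold on the wider side. At the looser limit tried the order turned, with 990 widened and 999 narrowed.

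Widened pairs outnumbered narrowed ones at the ceiling in both lists and at the ceiling in the LPS list only. In the 8117 pairs at the ceiling in both lists, 120 widened (1.48%, 1.24 to 1.76) and 30 narrowed (0.370%, 0.259 to 0.527), although the median ratio was 0.980. In the 3891 pairs below the ceiling in both lists, 220 widened (5.65%, 4.97 to 6.42) and 256 narrowed (6.58%, 5.84 to 7.40). In the 463 pairs at the ceiling in 1 list only, 89 widened and 4 narrowed, and 86 of the 89 reached the ceiling with LPS. The 295 of these pairs at the ceiling in the untreated list only held 3 widened and 4 narrowed ones. Among pairs that scored under 100 untreated, 105 of 646 widened (16.3%) and 48 narrowed. Among those that scored under 100 after LPS, 106 of 742 narrowed (14.3%). Score and width come from the same reads, so a class defined on 1 list takes in the pairs that were small in that list.

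Widened ceiling pairs were a small share at every untreated width, and the median ratio was below 1 in each bin (0.976 to 0.983). Sorted into 4 bins by untreated width, with limits at 2127, 2668 and 3394 bp, widened pairs numbered 39, 28, 31 and 22 from the narrowest to the widest bin, and narrowed pairs 2, 8, 5 and 15. Sorted by the mean log width of both lists, widened pairs numbered 8, 20, 34 and 58 and narrowed pairs 9, 6, 7 and 8. This mean includes the LPS width, so widening itself moves a pair toward the broader bins. In this second division widening went from 0.394% (0.200 to 0.776) of the narrowest bin to 2.86% (2.22 to 3.68) of the broadest, and narrowing from 0.444 to 0.394%. By untreated width, widening went the other way, from 1.92 to 1.08%. Both divisions use a width that also enters the ratio, so neither shows how widening depends on width. In all one-to-one pairs, 156 reached 5 kb after LPS, 68 fell under it and 393 were at least this wide in both lists. On the 1.5-fold limit itself, the pair at chr15:36210280-36213747 (2311 and 3468 bp) was counted as widened and that at chr4:45022447-45025417 (1977 and 2960 bp) was not. On the other side, chr19:17426790-17431575 (4786 and 3190 bp) was counted as narrowed and chr1:59969074-59973400 (4327 and 2889 bp) was not.

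**Figure D3:**
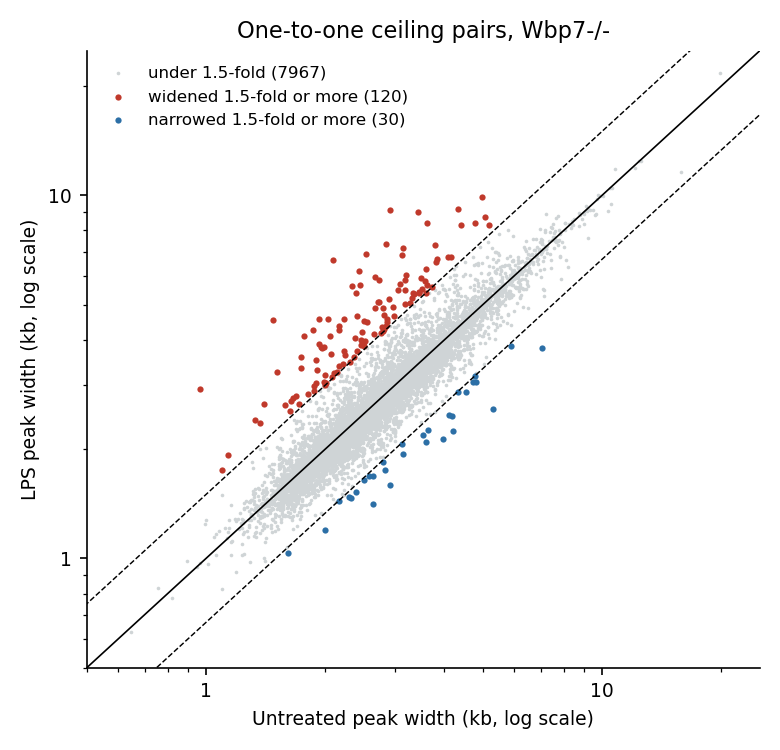
LPS peak width (y axis, kb, log scale) against untreated peak width (x axis, kb, log scale) for the 8117 one-to-one Wbp7-/- pairs at the ceiling in both lists, 1 point a pair. The solid line marks equal width and the dashed lines a ratio of 1.5 in either direction. The 120 widened pairs (red) outnumber the 30 narrowed pairs (blue) around a cloud that sits just under the line.

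Among the pairs at the ceiling in both lists, the 15 that widened by the most bases are named here, so a strong untreated peak was a condition of their choice. They measured 2087 to 5051 bp untreated and 6181 to 9869 bp after LPS. All 15 were at least 5 kb wide after LPS, and 1 was untreated. The largest difference among these ceiling pairs was at chr9:51972426-51981506, where the peak went from 2912 to 9081 bp, 3.12 times as wide, with 2254 bp added at the lower coordinate and 3915 bp at the higher one. At chr9:20818377-20827375 the width went from 3423 to 8999 bp, and 4884 of the added bases lay on the side of the higher coordinates. Both regions were also covered more widely after LPS in Wbp7+/- cells, from 4084 to 8242 bp and from 3564 to 8870 bp.

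The third, chr16:97755534-97765402, had the widest LPS peak of the 15, with 9869 bp after 4976 bp untreated. At chr5:115369451-115378615 the peak went from 4332 to 9165 bp, with the added bases shared between the edges (2080 and 2753 bp). The peak at chr10:18726919-18735922 instead gained 5380 bp at its lower edge while the upper edge moved inward, for 3624 bp untreated and 8395 bp after LPS. The highest ratio of the set was that of chr10:87814222-87820839, 3.17, from 2087 to 6618 bp. Nearly all of this, 4368 bp, lay on the side of the lower coordinates.

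The peaks at chr16:84702136-84709481 (2846 to 7346 bp), chr14:77431404-77438304 (2535 to 6901 bp) and chr19:34713736-34720902 (3145 to 7167 bp) each added more than 4 kb. Those at chr12:112679349-112687607, chr4:61946802-61952982, chr8:89403333-89410165, chr6:149255730-149264425, chr4:144828982-144837349 and chr10:117276739-117284073 added 3511 to 3867 bp. Growth was mostly on 1 side. A single edge made up at least 80% of the difference in 12 of the 15 named pairs, 6 of the 15 growing more toward lower and 9 toward higher coordinates. The same held for 98 of all 120 widened ceiling pairs (81.7%), where the larger edge moved by a median of 1725 bp and the smaller by 149.5 bp. In all ceiling pairs the share was 67.7%, with a median of 154 bp for the larger edge. A pair whose edges moved in opposite directions counts as one-sided by this definition. Both edges moved the same way, outward or inward, in 4487 of the 8117 ceiling pairs and in 96 of the 120 widened ones. The shares of one-sided pairs are therefore not comparable, and whether one-sided growth is more common among widened pairs was not tested. Without strand or gene positions, the direction of growth relative to transcription was not analysed here.

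**Figure D4:**
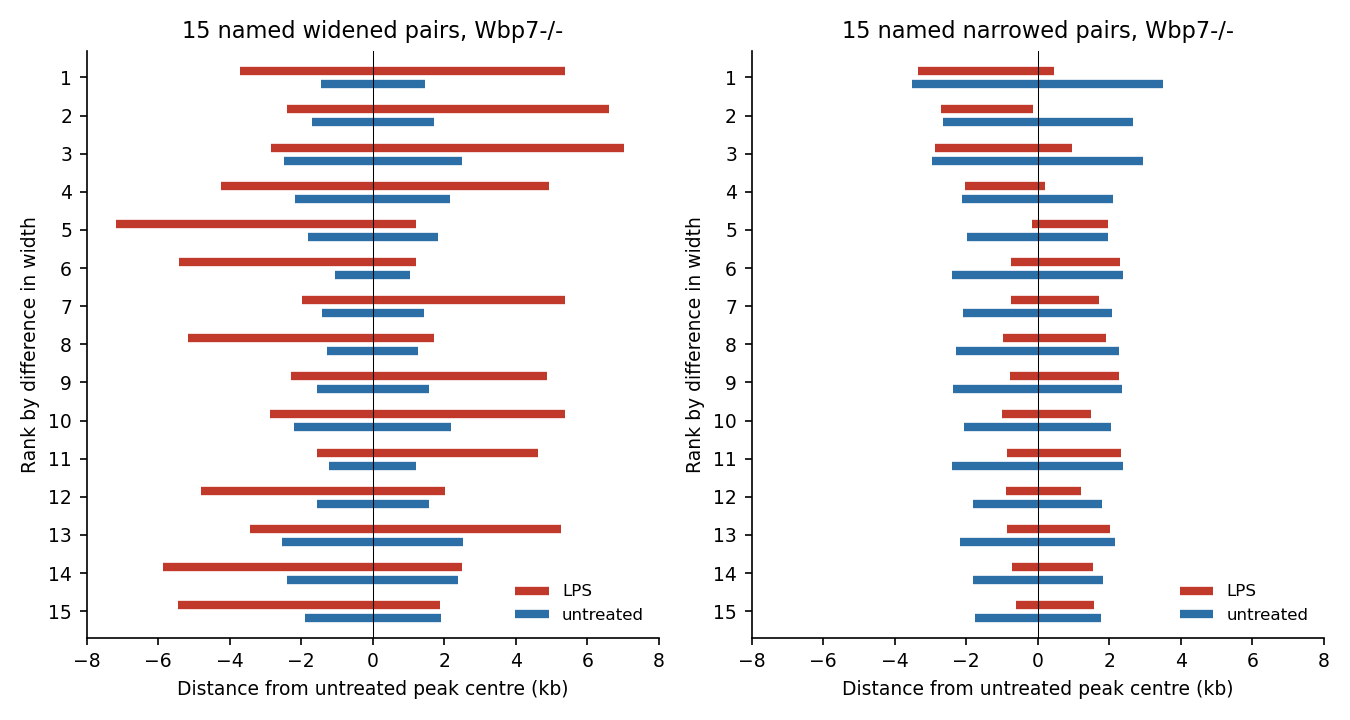
Extent of the untreated peak (blue) and the LPS peak (red) for the 15 named widened pairs (left) and the 15 named narrowed pairs (right) of Wbp7-/- cells. The x axis gives the distance from the centre of the untreated peak in kb and the y axis the rank by difference in width. In 12 widened and 11 narrowed pairs a single edge makes up at least 80% of the difference.

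All 15 named widened pairs were covered more widely after LPS in Wbp7+/- cells too, with ratios of covered length from 1.11 to 2.99 and a median of 1.72. The ratio reached 1.5 at 10 of them. Over the regions with 1 ceiling peak in each of the 4 lists, 36.0% were wider after LPS in Wbp7+/- cells and 1.59% reached 1.5. The lowest, 1.11, was at chr4:144828982-144837349, where Wbp7+/- cells had 8077 bp untreated against 4778 bp in untreated Wbp7-/- cells. After LPS the 2 genotypes had 8944 and 8368 bp there. Likewise at chr10:117276739-117284073 untreated cells had 6570 bp (Wbp7+/-) and 3795 bp (Wbp7-/-), while LPS-treated cells had 8223 and 7306 bp.

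Narrowed ceiling pairs were fewer, and their differences smaller. The 15 named ones measured 3524 to 7032 bp untreated and 2093 to 3837 bp after LPS. The largest difference was at chr1:173769339-173776370, from 7032 to 3798 bp, nearly all of it at the higher coordinate. Wbp7+/- cells had nearly the same widths there, 6912 bp untreated and 3440 bp after LPS. At chr9:67687579-67692941 the width went from 5311 to 2587 bp, at chr11:116975089-116980981 from 5893 to 3837 bp and at chr5:138696024-138700231 from 4208 to 2237 bp. In Wbp7+/- cells the covered length at these 3 went from 2895 to 2092, from 5595 to 3323 and from 4483 to 2036 bp. These 4 regions were thus narrower after LPS in both genotypes.

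The other named narrowed pairs gave mixed values in Wbp7+/- cells. At chr16:4417117-4421076 the Wbp7-/- peak went from 3960 to 2130 bp, while Wbp7+/- cells had 3910 bp untreated and 3944 bp in 2 peaks after LPS. The pairs at chr17:47903114-47907912, chr7:134024677-134028844, chr10:60842594-60847140, chr15:27607347-27612062, chr7:52377016-52381126 and chr19:17426790-17431575 measured 4111 to 4799 bp untreated and 2469 to 3190 bp after LPS. Those at chr11:55271764-55275356, chr14:21549978-21554299, chr7:105230972-105234610 and chr5:31259950-31263473 measured 3524 to 4322 and 2093 to 2880 bp. Of the 15, the covered length in Wbp7+/- cells was lower by 1.5-fold or more after LPS at 6 and higher after LPS at 4. The median ratio of the 15 in Wbp7+/- cells was 0.72. Over the 7149 regions with 1 ceiling peak in each of the 4 lists, 0.490% narrowed by 1.5-fold or more in Wbp7+/- cells and 36.0% were wider after LPS.

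Of the 12471 pairs, 10898 (87.4%) stayed in the same score class, 582 (4.67%) were in a higher one after LPS and 991 (7.95%) in a lower one. Of those that stayed, 8117 were at the ceiling in both lists, where a difference in score cannot show. Of the 4059 pairs below the ceiling untreated, 2781 (68.5%) kept their class. The moves upward went further. A pair stood 2 or more classes higher after LPS in 64 cases and 2 or more classes lower in 5. Pairs that moved up also had wider LPS peaks, with a median ratio of 1.265, and 201 of the 582 widened. Those that moved down had a median ratio of 0.908 and 100 of the 991 narrowed. Since deeper libraries give higher scores, the balance of small moves up and down is no measure of a change in the mark.

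At 11 pairs the score went from under 100 untreated to the ceiling after LPS, and all 11 LPS peaks were at least 1.5 times as wide. These regions were picked out after their values were seen. The foremost was chr7:133734989-133743517, where a peak of 998 bp with a score of 52.81 became one of 8529 bp. Wbp7+/- cells had 1853 bp untreated and 7808 bp after LPS there. At chr2:166878401-166882892 the width went from 1223 to 4492 bp, and in Wbp7+/- cells from 3782 to 13370 bp. The peak at chr14:103411420-103415428 went from 791 to 4009 bp and lay 30.4 kb from the new ceiling peak at chr14:103445788-103450173. These regions differ from the new ceiling peaks in that a weak peak was already listed without LPS.

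The other 8 were chr8:41947209-41951124, chr6:129222580-129226780, chr14:55049549-55053665, chr15:31294633-31297909, chr14:28148845-28151385, chr3:151411186-151413116, chr19:34659207-34660960 and chr17:44241572-44243705. Their untreated peaks measured 491 to 1127 bp and their LPS peaks 1754 to 4201 bp. In Wbp7+/- cells all 11 had an untreated peak, which stood at the ceiling in 3, and all 11 LPS peaks stood at the ceiling. Of all Wbp7+/- peaks, 56.0% stood at the ceiling untreated and 54.8% after LPS. The covered length in Wbp7+/- cells was larger after LPS at all 11, by a factor of 1.16 to 4.76 and of at least 1.5 at 8. Over the 10527 regions with 1 peak in each of the 4 lists, 38.6% were wider after LPS in Wbp7+/- cells and 2.81% reached 1.5. The lowest factors, 1.16 and 1.22, were at chr14:28148845-28151385 and chr15:31294633-31297909. Both were at the ceiling in untreated Wbp7+/- cells, while the untreated Wbp7-/- peaks scored 61.99 and 79.07. The region at chr19:34659207-34660960 lay 52.8 kb from the widened pair at chr19:34713736-34720902.

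The 5 pairs that fell 2 classes were all between 500 and the ceiling untreated and under 100 after LPS, and were also picked out after their values were seen. At chr9:56726524-56730884 the peak went from 4361 to 491 bp, with scores of 1614.46 and 68.95. At chr9:57280616-57283051 it went from 2436 to 737 bp, with 1049.39 and 59.37. The others were chr5:92782084-92783104 (800.06 to 56.04), chr1:88158983-88160902 (691.51 to 81.39) and chr12:113818083-113819932 (672.57 to 95.89). The peak on chromosome 1 was the wider one after LPS, with 1447 and 1758 bp, in spite of its lower score. Untreated Wbp7+/- cells had a peak at 4 of the 5, and LPS-treated Wbp7+/- cells had none at any. Matched untreated peaks from 500 to under the ceiling overlapped an untreated Wbp7+/- peak in 97.0% and a Wbp7+/- LPS peak in 92.0%. For matched LPS peaks scoring under 100 these shares were 71.9 and 60.3%. The weakened peak on chromosome 5 was the nearest matched LPS peak to the new ceiling peak at chr5:92789099-92791707, at 6.62 kb.

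Below the ceiling, the highest-scoring widened pairs were chrX:33651548-33653921 (977 to 2374 bp), chr2:150395692-150398188 (1656 to 2497 bp), chr19:11631727-11634302 (724 to 2576 bp), chr11:97855442-97857684 (1304 to 2243 bp) and chr1:175420255-175421441 (438 to 1187 bp). Their scores were 52.57 to 362.94 untreated and 2824.44 to 3085.53 after LPS. These 5 were ranked by LPS score, so the high LPS scores follow from the choice. Untreated Wbp7+/- cells had no peak at the one on chromosome 2, and a peak at the ceiling at the one on chromosome 11. The highest-scoring narrowed pairs were chr18:36177490-36178971 (1482 to 839 bp), chr11:114859329-114861918 (2590 to 1351 bp), chr6:32730013-32732784 (2772 to 1688 bp), chr10:121027736-121030144 (2293 to 1387 bp) and chr13:49335560-49338957 (3398 to 1516 bp). The narrowed pairs were ranked by untreated score instead. In Wbp7+/- cells the covered length of these 5 ranged from 0.65 to 1.10 times the untreated one.

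Some new peaks had a widened pair as a neighbour. A widened pair was within 10 kb of 10 of the 113 new peaks scoring 500 or above (8.85%) and of 100 of the 1184 scoring less (8.45%). It was within 10 kb of 26 of 946 missing peaks (2.75%), 6 of 290 narrowed pairs (2.07%) and 190 of all 12471 pairs (1.52%). The shares for new peaks were thus the highest of these sets, which share the LPS list, and the differences were not tested.

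The 2 genotypes could be compared in width at 10527 regions that held exactly 1 peak in each of the 4 lists. In Wbp7+/- cells 2.81% of these widened and 1.84% narrowed with LPS. Of the 271 that widened in Wbp7-/- cells, 121 also widened in Wbp7+/- cells (44.6%, 38.8 to 50.6) and 226 (83.4%) had a wider LPS peak there, against 38.6% of all 10527. Among the 10113 that neither widened nor narrowed in Wbp7-/- cells, 1.68% (1.45 to 1.95) widened in Wbp7+/- cells. Of the 143 that narrowed in Wbp7-/- cells, 18 narrowed in Wbp7+/- cells (12.6%, 8.11 to 19.0) against 1.72% (1.48 to 1.99) of the 10113. The share found again in the other genotype was higher for widening than for narrowing. The sets differ in score, since 68 of the 271 and 20 of the 143 were at the ceiling in all 4 lists. The intervals count regions of the same 4 libraries, and the difference between the shares was not tested.

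Strong peaks gave the following values. At the 7149 regions that reached the ceiling in all 4 lists, 1.59% widened and 0.490% narrowed in Wbp7+/- cells. Of the 68 that widened in Wbp7-/- cells, 41 widened in Wbp7+/- cells (60.3%, 48.4 to 71.1), 65 (95.6%) had a wider LPS peak and 0 narrowed. Over all 7149 regions 36.0% had a wider LPS peak in Wbp7+/- cells. The median ratio of the 68 was 1.695 in Wbp7-/- and 1.593 in Wbp7+/- cells, against 0.978 and 0.97 over all 7149. Of the 20 that narrowed in Wbp7-/- cells, 3 narrowed in Wbp7+/- cells (interval 5.24 to 36.0%), and the median ratio was 0.626 in Wbp7-/- and 0.942 in Wbp7+/- cells. Pearson's correlation of the log2 width ratios was 0.500 and Spearman's 0.331 over the 7149 regions, and 0.400 and 0.314 over the 7061 of them under 1.5-fold in Wbp7-/- cells. The regions share the 4 libraries and are not replicates.

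**Figure D5:**
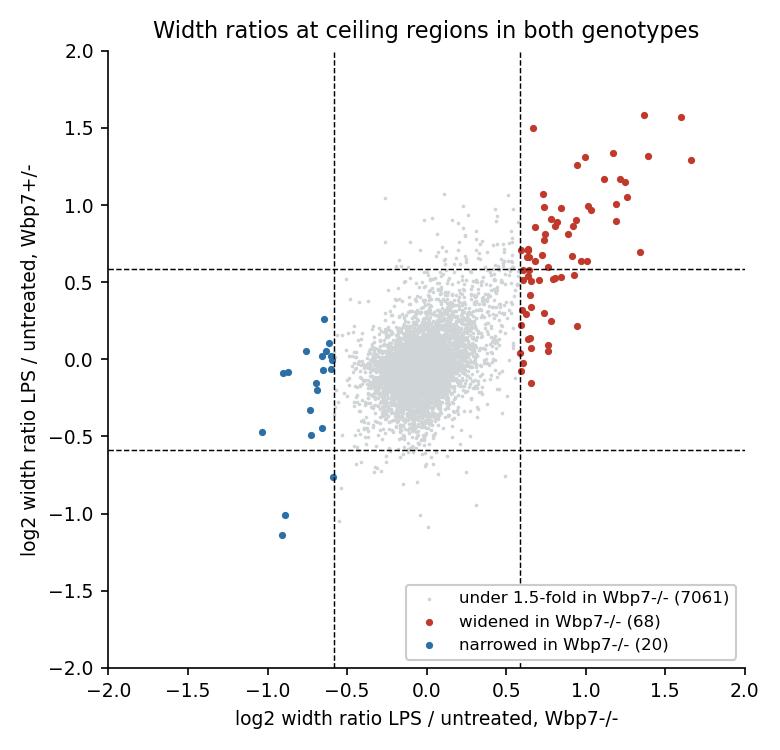
The log2 ratio of LPS to untreated width in Wbp7+/- cells (y axis) against that in Wbp7-/- cells (x axis) at the 7149 regions with 1 ceiling peak in each of the 4 lists, 1 point a region. Dashed lines mark a ratio of 1.5 in either direction. Of the 68 widened in Wbp7-/- cells (red), 41 lie above the upper line, and of the 20 narrowed (blue), 3 lie under the lower one.

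A small part of the regions changed in number of peaks. At 440 regions 1 untreated peak faced 2 or more LPS peaks, at 301 the reverse was seen and at 61 each list had 2 or more. The covered length hardly differed in these, with median ratios of 0.9593, 1.0181 and 0.9958. Of the regions in which several untreated peaks became 1, 15 (4.98%) were covered 1.5 times more widely after LPS and 6 (1.99%) less widely.

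Counted in bases, 30.43 Mb were covered in both lists, 3.467 Mb in the LPS list only and 3.039 Mb in the untreated list only. New peaks made up 1.2573 Mb or 36.3% of the bases found with LPS only. The other 63.7% lay in regions with a peak in both lists. Missing peaks made up 27.1% of the bases found without LPS only, or 0.8223 Mb.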

How the data were processed

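H3K4me3 ChIP-seq peak lists of 4 libraries were used, 1 for each genotype and treatment. The submitters' processing notes name Bowtie and mm9. MACS made 1 list per library against input, per the file headers. Tool versions, thresholds and read numbers were not given in the sources used here. The authors deposited positions and 1 score per peak, used as the authors' own value to class and rank peaks within a list.

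Peaks were matched by overlap in Python 3.11.15 (numpy 2.4.6, pandas 2.3.3) and intervals came from scipy 1.17.1. The matching was tested on simulated data. Widened and narrowed pairs were called only in regions with 1 peak of each list. Covered lengths were compared where a list had several peaks in a region. With 1 library a group, no test was run. Regions were named by rule: every new ceiling peak, the next 10, the 15 highest-scoring missing peaks, the 15 ceiling pairs widened and the 15 narrowed by the most bases past 1.5-fold, and 5 of each below the ceiling, ranked by LPS and untreated score. The comparisons and rules were chosen with earlier results of these data known. Pairs that crossed 2 or more score classes were added after their values were seen. Other overlap rules, score limits, list lengths and width ratios were tried as alternatives. Gene lists and cell type markers needed an mm9 annotation and were not used here. Positions were not lifted from another build, and no sequence is printed. Figures used matplotlib 3.10.9.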

Additional observations from a re-analysis of the deposited data

Results flagged for a closer look

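At 7 of the 10527 regions with 1 peak in each list, the width ratio passed 1.5-fold in opposite directions in the genotypes. At 2 the peak widened in Wbp7-/- and narrowed in Wbp7+/- cells, and at 5 it narrowed in Wbp7-/- and widened in Wbp7+/- cells. With 1 library for each genotype and treatment, these differences were not tested. The 2 were chr17:74291262-74292218 (427 to 866 bp in Wbp7-/-, 957 to 436 bp in Wbp7+/-) and chr5:20460062-20462047 (1131 to 1873 bp and 1985 to 905 bp). The highest-scoring of the 5 was chr2:167186257-167188219, with scores of 360.06 and 725.33 in Wbp7-/- cells and widths of 1732 to 591 bp against 578 to 1944 bp in Wbp7+/- cells. None of the 7 reached the ceiling in any list.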

How the results depend on the processing

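Of 28 alternative values of the 4 counts (new, missing, widened, narrowed), 16 stayed within 1.5 times the reported count. With peaks under 100 dropped from both lists, 805 peaks were new and 630 missing. Counting only peaks of 100 or more against the whole other list gave 526 new and 250 missing, and of 500 or more 113 and 1. With both lists cut to 14599 peaks, 1033 were new and 1125 missing, so their order turned. The cut shortened the LPS list only, which can lower the count of new peaks and raise that of missing ones. The order was kept in the other 6 settings. All 20 new ceiling peaks were still new when an untreated peak within 1 kb counted as a match. The stricter overlap, the score limit and the cut in length could not turn a new ceiling peak into a matched one, so they are no check of it. The looser width ratio tried gave 990 widened and 999 narrowed pairs, where the order turned, a ratio of 2 gave 150 and 68, and ceiling pairs alone 120 and 30. Dividing ratios by their median gave 473 and 245. Of the named pairs, 10 widened and 1 narrowed passed a ratio of 2. Joining peaks of a list within 1 kb, an alternative chosen after seeing the data, gave 933 new, 767 missing, 499 widened and 338 narrowed. The unknown depths limit every count of weak peaks and every width set between lists. No paired analysis was possible because each group held 1 library.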
